A study of Mus musculus with 8 samples.

Results

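The 10 genes described here are the chromatin organiser Satb1, the Ikaros family members Ikzf1, Ikzf2, Ikzf3 and Ikzf5, the E protein gene Tcf3, the receptor rearrangement genes Dntt and Rag1, and the B lineage factors Ebf1 and Pax5. They were found by gene symbol among the 38172 genes of the deposited table, where each of the 10 had 1 row. Polyadenylated RNA was measured by sequencing in haematopoietic stem cells (HSCs), from which every blood lineage is renewed in the bone marrow. The old group came from C57BL/6 mice of 24 months and the young group from C57BL/6 mice of 4 months, and the gate used on the fresh cells of both was SP-KSL-CD150+. It combines dye efflux (SP), Kit and Sca-1 on lineage-negative cells (KSL) and the SLAM receptor CD150. Each age had 2 biological replicates, numbered 13 and 14, each sequenced as 2 technical libraries. How many animals went into a replicate is not given, so a p-value here covers only the spread among these 4 samples, which may be technical.

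Ikaros proteins are zinc finger factors that bind DNA and recruit chromatin remodelling complexes such as NuRD, and mice without Ikzf1 make few or no B cells. Satb1 folds chromatin by binding AT-rich DNA and is needed for T cell development. Tcf3 encodes E2A, the basic helix-loop-helix factor that acts with Ebf1 and then Pax5 to specify B cells. Rag1 cuts antigen receptor genes for rearrangement and Dntt encodes the terminal transferase that adds bases at the joints. Low expression of several of these genes in multipotent cells is known as lymphoid priming.

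The promoters of Satb1, Rag1 and Dntt are printed because these were the 3 lymphoid genes with values of at least 100 in a replicate and young means more than 2-fold above the old ones, a choice made after the values were seen. Each is 250 bases before to 50 after a transcription start in RefSeq, build GRCm38.p6, in the direction of the gene. Capitals mark GGGAA, the core bound by Ikaros proteins, and CAGGTG, an E-box bound by E2A, on either strand (TTCCC and CACCTG on the other).
Satb1 (chr17:51833241-51833540, minus strand): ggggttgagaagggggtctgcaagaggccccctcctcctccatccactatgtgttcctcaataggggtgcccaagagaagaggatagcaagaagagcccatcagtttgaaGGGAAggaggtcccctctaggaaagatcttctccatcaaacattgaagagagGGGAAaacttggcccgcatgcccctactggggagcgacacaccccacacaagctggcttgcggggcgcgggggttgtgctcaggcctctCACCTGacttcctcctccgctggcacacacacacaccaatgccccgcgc
Rag1 (chr2:101649483-101649782, minus strand): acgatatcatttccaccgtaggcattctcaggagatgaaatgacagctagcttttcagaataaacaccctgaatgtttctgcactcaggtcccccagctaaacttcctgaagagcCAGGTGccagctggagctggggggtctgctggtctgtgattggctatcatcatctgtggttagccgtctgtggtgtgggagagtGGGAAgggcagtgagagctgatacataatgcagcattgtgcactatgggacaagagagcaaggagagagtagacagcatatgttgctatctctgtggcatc
Dntt (chr19:41029025-41029324, plus strand): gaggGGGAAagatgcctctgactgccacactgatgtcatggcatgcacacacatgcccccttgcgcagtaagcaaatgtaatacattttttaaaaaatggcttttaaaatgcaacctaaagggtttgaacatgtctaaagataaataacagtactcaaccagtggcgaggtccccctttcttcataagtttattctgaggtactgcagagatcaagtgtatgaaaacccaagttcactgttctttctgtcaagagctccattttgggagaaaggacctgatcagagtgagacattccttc

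RefSeq listed promoters for 8 of the 10 genes, 14 in all, of which Satb1 had 5 and Ikzf1 and Ebf1 had 2 each. The printed Satb1 promoter is the one farthest upstream. GGGAA occurred in 11 of these 14 windows and in 62.7% of all 32851 promoters of 300 bases. CAGGTG occurred in 3 of the 14, which were 2 of Satb1 and that of Rag1, and in 20.2% of all promoters. The motifs do not overlap in the windows shown, and a match describes the letters only.

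The deposited values, called scaled values here, are read numbers after a multiplication by the authors, constant within a library, and rounding. They summed to between 40.7 M and 44.2 M per library. Before scaling the libraries held an estimated 22.3 M to 66.5 M reads. The gate's genes were abundant, with Kit at 57824 and 63949.5 in old and 56382 and 54958.5 in young HSCs. Of the 4 gate genes 1 passed the test. Slamf1, the gene of CD150, rose, at 3175 and 3083 in old and 1597 and 1735.5 in young HSCs (adjusted p = 0.0226, limma, and 0.136 to 0.202 with any 1 replicate left out). The Sca-1 gene Ly6a had 3519 and 5566 in old and 2621 and 2573.5 in young HSCs (adjusted p = 0.163, limma), and the efflux pump gene Abcg2 had 5150.5 and 6647.5 in old and 4521.5 and 4726 in young HSCs (adjusted p = 0.449, limma). Of 18 tested HSC and sort genes 2 rose, Slamf1 and Procr (adjusted p = 0.0483, limma), and 1 fell, Cd34 (adjusted p = 0.0456, limma). Without a trend on level neither Procr nor Cd34 passed (adjusted p = 0.143 and 0.126, limma). With no filter on low values they did not pass either (adjusted p = 0.201 for each, limma). The part of these differences in the values of the 10 genes was not tested. Among lineage marker genes, Ly6g and Cd8a stayed at or below 7 in every replicate, while Itgam and Cd4 did not. Itgam had 226.5 and 496.5 in old and 520.5 and 1350 in young HSCs (adjusted p = 0.297, limma). Cd4 had 35.5 and 22.5 in old and 84.5 and 74.5 in young HSCs (adjusted p = 0.0897, limma). Young replicate 14 carried more RNA of neutrophil marker genes than young replicate 13. The 12 markers summed to 8870.5 and 17282 in old replicates 13 and 14 and to 10698.5 and 26018.5 in young replicates 13 and 14. None of them was at 0 in all libraries. Of these 12 markers 0 passed in limma and 6 had an unadjusted p under 0.05, 5 below 0 and 1 above. In the fit 11 of the 12 were below 0, at a median log2 fold change of -2.51. The exception was Prtn3, at 7700.5 and 9944.5 in old and 4457 and 6940 in young HSCs.

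Old HSCs had less Satb1 RNA than young HSCs, and Satb1 was the only one of the 10 genes that passed the test across all genes. The other 9 genes also had lower means in old HSCs, but 8 of them did not pass and Pax5 was below the filter on low values. The abundant members Ikzf1, Ikzf2, Ikzf5 and Tcf3 had means between 7.59% and 32.0% lower in old HSCs. With the threshold at an adjusted p (Benjamini-Hochberg, limma) of 0.05, 1 of the 9 tested members was lower and 0 were higher, where 0.540% of the 18318 tested genes were lower and 2.01% were higher. Ebf1 passed the filter on low values only through its young replicates, which favours its direction. It is therefore left out of the member counts in the rest of this paragraph. The other 8 tested members were all fitted below 0, at a median log2 fold change of -0.46. Of all tested genes 43.5% were below 0, at a median of 0.04. The neutrophil, erythroid and stromal marker lists each had 91.7% of their tested genes below 0, at medians of -2.51, -0.98 and -0.66. The stromal share includes Cdh5, which passed the filter only through its young replicates. In 6 of the 8 members both old replicates lay below both young ones, an arrangement seen in 17.4% of all tested genes. With 2 replicates against 2 an exact permutation test of a single gene cannot give a two-sided p below 0.333.

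**Figure D1:**
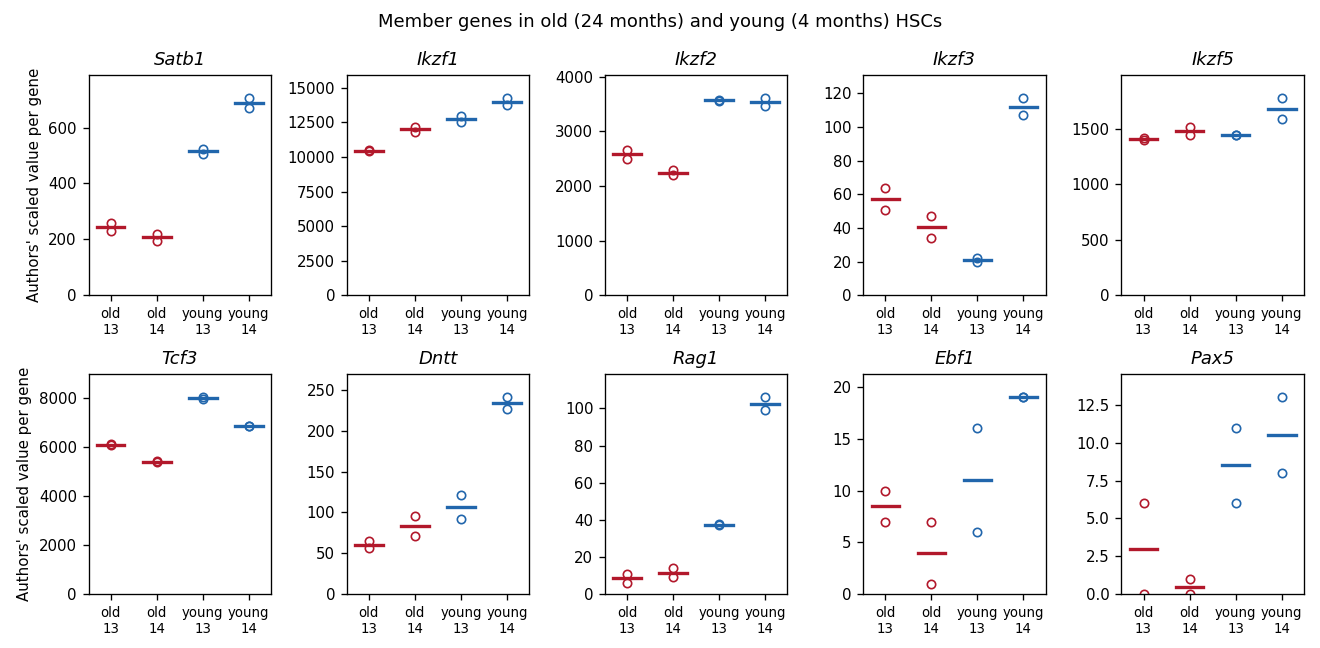
Scaled value of each member gene (vertical axis, from 0, a scale of its own per gene) in old replicates 13 and 14 (red) and young replicates 13 and 14 (blue). Open circles are technical libraries and bars their mean; Satb1 is at 246 and 207 in old and 515.5 and 687 in young HSCs, and the young replicates of Ikzf3 lie on both sides of its old ones.

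Satb1, on chromosome 17 from 51875512 to 51972615 in mm9, had scaled values of 260 and 232 in the libraries of old replicate 13 and of 218 and 196 in those of old replicate 14. In young HSCs it had 506 and 525 in the libraries of replicate 13 and 704 and 670 in those of replicate 14. Every old library lay below every young library, and the largest log2 difference within a technical pair was 0.16. Satb1 averaged 226.5 ± 27.6 in old HSCs and 601.2 ± 121.3 in young HSCs (SD, n = 2 each). It fell in old HSCs to 0.377 of its young level, with a log2 fold change of -1.40 (SE 0.22) and an adjusted p of 0.0256 in limma. In bulk RNA, fewer Satb1-expressing cells and less Satb1 RNA per cell cannot be told apart. Without old replicate 13, old replicate 14 or young replicate 14 the fold change was -1.52, -1.27 and -1.19 and the adjusted p in limma was 0.15, 0.294 and 0.17, and without young replicate 13 they were -1.60 and 0.0429. It also missed the threshold in limma without a trend on level (adjusted p = 0.0721), with the lower-numbered technical libraries alone (0.052) and with no filter on low values (0.149). In the authors' deposited table Satb1 had a log2 fold change of -1.44 and an FDR of 1.27e-20.

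The 5 genes whose profile over the 8 libraries lay closest to that of Satb1 were Car1, Vcam1, Clnk, Nlrp10 and Cd5l, among 13228 genes with a mean scaled value of at least 100. Closeness is the Euclidean distance between log2 profiles centred on their means, and it was 0.294 for Car1 and 0.458 for Cd5l. The profiles share their libraries, and closeness to a gene that differs with age selects genes that do. Car1, the erythroid carbonic anhydrase, had 2753 and 1995.5 in old and 4924 and 7284.5 in young HSCs, and it was 1 of 6 erythroid markers that fell among 12 tested. Vcam1, an adhesion molecule that binds integrins, had 316 and 325 in old and 666 and 910 in young HSCs. Clnk, an adaptor of immune receptor signalling, had 118.5 and 87.5 in old and 220.5 and 296.5 in young HSCs.

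Among the Ikaros family, Ikzf1 was by far the most abundant and Ikzf2 had the largest difference among its abundant members. Per transcript length, Ikzf1 stood at 40.6 and 46.5 FPKM in old replicates 13 and 14 and at 49.5 and 54.3 FPKM in young replicates 13 and 14. Of the summed FPKM of Ikzf1 to Ikzf5, Ikzf1 made up 73.5% and 77.3% in old and 75.6% and 76.0% in young HSCs. The shares of the 2 ages overlap for Ikzf1. The share of Ikzf2 was 9.93% and 7.94% in old and 11.6% and 10.5% in young HSCs, lower in both old replicates.

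Ikzf1, which encodes Ikaros, had scaled values of 10466 and 11995 in old and 12758 and 13992 in young HSCs. Both old replicates lay below both young ones, with a log2 fold change of -0.25 (SE 0.16) and an adjusted p of 0.578 in limma. The last part of Ikzf1, up to its end at 11672929, overlaps an unnamed model on the opposite strand, HAG_006148. That model lies on chromosome 11 from 11669487 to 11673899 in mm9, and it averaged 7646 in old and 8828.5 in young HSCs. The sources used here do not say that counting used strand, so reads of the 2 models in the overlap cannot be told apart. None of the other 9 genes overlaps another model of the table.

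Ikzf2, which encodes Helios and is known for its role in T cells, had 2582 and 2248.5 in old and 3568 and 3537 in young HSCs. Both old replicates were lower, and the young ones differed by less than the technical libraries of young replicate 14 did. It averaged 2415.2 ± 235.8 in old HSCs and 3552.5 ± 21.9 in young HSCs (SD, n = 2 each). The log2 fold change was -0.56 (SE 0.14) with an adjusted p of 0.117 in limma, so Ikzf2 did not pass. It passed when all 8 libraries were fitted with the biological replicate as a random block (adjusted p = 0.0122, limma). It did not pass without a trend on level (adjusted p = 0.239, limma) or with no filter on low values (adjusted p = 0.256, limma). With 1 replicate left out its log2 fold change stayed between -0.66 and -0.46. In the authors' deposited table Ikzf2 had a log2 fold change of -0.58, an FDR of 3.07e-05 and a mark as lower.

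Ikzf5, which encodes Pegasus, the most divergent member of the family, had 1410.5 and 1480.5 in old and 1446.5 and 1682 in young HSCs, and the ages overlapped. Its log2 fold change was -0.11 (SE 0.15), with an adjusted p of 0.827 in limma. Ikzf3, which encodes Aiolos, a factor of maturing lymphocytes, was low and varied most. It had 51 and 64 in the libraries of old replicate 13, 47 and 34 in those of old replicate 14, 20 and 22 in those of young replicate 13, and 117 and 107 in those of young replicate 14. The young replicates lay on either side of both old ones, and young replicate 14 stood at 5.33 times young replicate 13. The fitted log2 fold change of Ikzf3 was -0.01 (SE 0.72), and it was -1.21 without young replicate 13 and 1.18 without young replicate 14. Ikzf4, which encodes Eos and was not among the 10 genes, was the family member with higher values in old HSCs, at 440 and 343.5 in old and 309 and 248.5 in young HSCs (log2 fold change 0.49, SE 0.22, adjusted p = 0.402, limma).

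**Figure D2:**
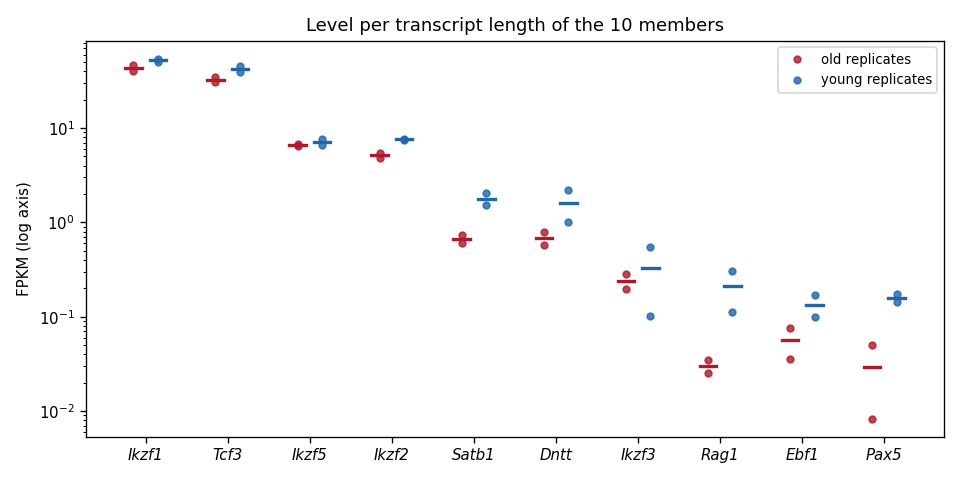
FPKM (vertical log axis) of the 10 genes in old (red) and young (blue) HSCs; dots are biological replicates and bars their means. Ikzf1 and Tcf3 lie between 30.6 and 54.3 FPKM, Ikzf5 and Ikzf2 between 4.78 and 7.67, and Rag1, Ebf1 and Pax5 at or below 0.308.

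The order of levels per transcript length was similar at both ages. In old HSCs the mean FPKM was 43.6 for Ikzf1, 32.6 for Tcf3, 6.59 for Ikzf5, 5.13 for Ikzf2, 0.68 for Dntt, 0.669 for Satb1, 0.24 for Ikzf3, 0.0561 for Ebf1, 0.03 for Rag1 and 0.0292 for Pax5. In old HSCs the neighbours Dntt and Satb1, and Rag1 and Pax5, overlapped between replicates. In young HSCs the mean FPKM was 51.9 for Ikzf1, 42.1 for Tcf3, 7.55 for Ikzf2, 7.13 for Ikzf5, 1.78 for Satb1, 1.61 for Dntt, 0.325 for Ikzf3, 0.21 for Rag1, 0.159 for Pax5 and 0.135 for Ebf1. There the neighbours Ikzf2 and Ikzf5, Satb1 and Dntt, and each neighbouring pair from Ikzf3 down to Ebf1 overlapped.

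Tcf3 lies on chromosome 10 from 79871910 to 79896398 in mm9, with RefSeq transcripts of the E2A gene. It had scaled values of 6094 and 5394 in old and 7979.5 and 6856 in young HSCs. Both old replicates lay below both young ones, and in each age replicate 14 was the lower. The log2 fold change was -0.37 (SE 0.16) with an adjusted p of 0.356 in limma. In the authors' deposited table Tcf3 had a log2 fold change of -0.39 and an FDR of 0.007.

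Rag1, on chromosome 2 from 101478411 to 101489689 in mm9, showed the widest difference of the tested members. It had 11 and 6 in the libraries of old replicate 13, 9 and 14 in those of old replicate 14, 37 and 38 in those of young replicate 13, and 106 and 99 in those of young replicate 14. Every old library lay below every young one, and the young replicates differed from each other by 2.73 times. These values correspond to about 34 reads over the 4 old libraries and 303 over the 4 young ones. Rag1 averaged 10 ± 2.1 in old HSCs and 70 ± 46 in young HSCs (SD, n = 2 each). Its log2 fold change was -2.59 (SE 0.53) with an adjusted p of 0.0605 in limma, just over the threshold. Without young replicate 13 the fold change was -3.31 and the adjusted p 0.0178, and without young replicate 14 they were -1.87 and 0.261. In the authors' deposited table Rag1 had a log2 fold change of -2.89 and an FDR of 4.59e-15, with no mark as lower, since its summed mean FPKM was below the minimum of 1 that marked genes meet. Rag2, the partner of Rag1 in the recombinase, was below the filter with 3 and 2 in old and 5.5 and 15.5 in young HSCs.

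Dntt, on chromosome 19 from 41103765 to 41134015 in mm9, had 56 and 65 in the libraries of old replicate 13 and 96 and 71 in those of old replicate 14. In young HSCs it had 121 and 92 in the libraries of replicate 13 and 227 and 241 in those of replicate 14. The lowest young library, at 92, lay below the highest old one, at 96, while the replicate means did not overlap. Dntt averaged 72.0 ± 16.3 in old HSCs and 170.2 ± 90.2 in young HSCs (SD, n = 2 each). The log2 fold change was -1.15 (SE 0.41) with an adjusted p of 0.256 in limma, and it was -0.58 without young replicate 14. In the authors' deposited table Dntt had a log2 fold change of -1.28 and an FDR of 4.32e-08.

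The B lineage factors Ebf1 and Pax5 rested on few reads. Ebf1 had 7 and 10 in the libraries of old replicate 13, 1 and 7 in those of old replicate 14, 6 and 16 in those of young replicate 13, and 19 in both libraries of young replicate 14. It passed the filter on low values only through its young replicates, and its log2 fold change was -1.23 (SE 0.55, adjusted p = 0.384, limma). Pax5 did not pass the filter. It had 0 and 6 in the libraries of old replicate 13, 0 and 1 in those of old replicate 14, 11 and 6 in those of young replicate 13, and 8 and 13 in those of young replicate 14. The Pax5 values correspond to about 7 reads over the 4 old libraries and 40 over the 4 young ones. In the library with the fewest reads a value of 5.52 stands for 3 reads, so single Pax5 values rest on a few reads.

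**Figure D3:**
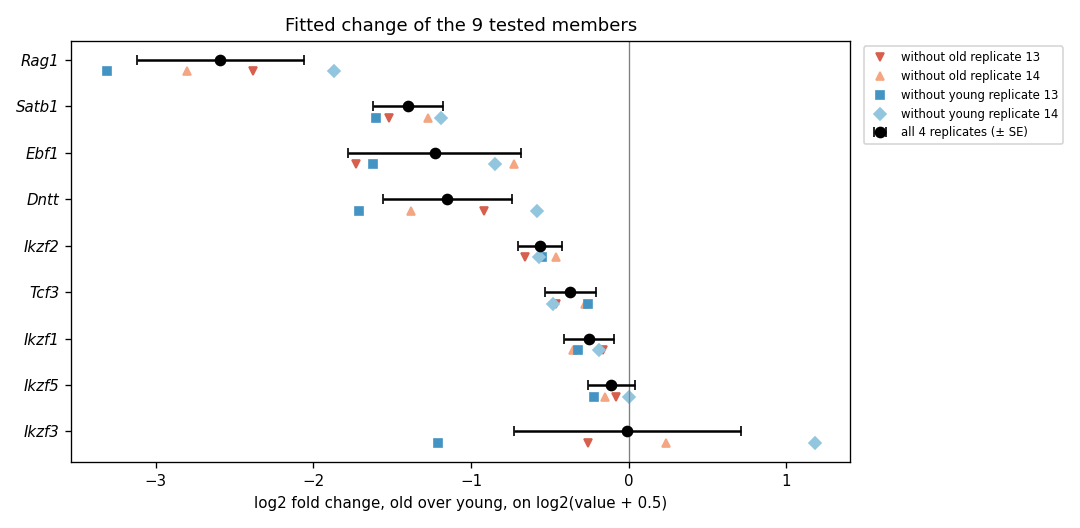
Fitted log2 fold change, old over young, of the 9 tested members (horizontal axis), with black dots for all 4 replicates and bars of 1 SE. Coloured symbols leave out 1 replicate each; Satb1 stays between -1.60 and -1.19, while Ikzf3 spans -1.21 to 1.18.

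The authors' deposited table called more of the 10 genes. Satb1, Ikzf2, Tcf3, Dntt and Rag1 had an FDR under 0.05, all lower in old HSCs, which makes 5 of 10 where 14.2% of 22284 genes with an FDR passed in either direction. Of these, 4 carried the authors' mark as lower, which 5.82% of genes carried. Which libraries entered that comparison as replicates is not stated in the files.

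Markers of T cells were low, and their sum was highest in young replicate 14. The 10 T cell markers summed to 61 and 56.5 in old replicates 13 and 14 and to 101.5 and 192.5 in young replicates 13 and 14. Only 1 of them, Cd4, passed the filter on low values, at 35.5 and 22.5 in old and 84.5 and 74.5 in young HSCs (adjusted p = 0.0897, limma). Of the 10 B cell markers 0 passed the test in limma, with 1 at an unadjusted p under 0.05, and they summed to 3140 and 2954 in old and 2839.5 and 2658 in young HSCs. Cd79b and Cd72 made up most of that sum, and Cd79a, a signalling chain of the B cell receptor, had 60 and 13.5 in old and 20 and 49.5 in young HSCs. Of the 4 tested NK cell markers Klrb1c rose, and none of the T, B or NK markers was at 0 in all libraries. Young replicate 14 stood at 5.33 times young replicate 13 in Ikzf3, 2.73 times in Rag1, 2.2 times in Dntt and 1.33 times in Satb1. It stood at 0.991 times in Ikzf2 and 0.859 times in Tcf3, and above young replicate 13 in 8 of the 10 members. Among the neutrophil markers the median difference between those replicates was 1.40 on the log2 scale, a unit unlike these ratios. Of 12 tested erythroid markers 6 fell, Slc4a1, Ermap, Rhag, Klf1 and Car1 among them, and 0 rose, and the list summed to 51638.5 and 58864 in old and 57005 and 60439 in young HSCs. Of 12 tested stromal and endothelial markers 3 fell and 1 rose, and the list summed to 8498.5 and 8275 in old and 11431.5 and 12522.5 in young HSCs. The collagen gene Col1a1 had 65 and 58 in old and 905.5 and 1794 in young HSCs (adjusted p = 0.00236, limma). The matrix genes Sparc and Col3a1 also fell, and Kdr, an endothelial receptor, rose, at 1331.5 and 1296.5 in old and 470 and 598 in young HSCs. None of the erythroid or stromal markers was at 0 in all libraries. The part of mature or other lineage cells in the values of these genes was not tested.

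Most genes of the lists that act with the members did not pass. Of 27 tested progenitor receptors and signalling genes 3 fell and 0 rose, with a median log2 fold change of -0.23. Flt3, the receptor that marks lymphoid-primed progenitors, had 653.5 and 803.5 in old and 2193.5 and 2198 in young HSCs (log2 fold change -1.60, SE 0.16, adjusted p = 0.00558, limma). Socs2, a cytokine signalling inhibitor, had 255 and 246 in old and 720.5 and 632 in young HSCs (adjusted p = 0.0128, limma). Cd37, a tetraspanin of lymphocytes, had 1118 and 1105.5 in old and 2237 and 2347 in young HSCs (log2 fold change -1.04, SE 0.14, adjusted p = 0.0148, limma). Without either old replicate none of the 3 passed (adjusted p = 0.124 to 0.201, limma). Il7r, the interleukin 7 receptor of lymphoid progenitors, had 71 and 87.5 in old and 20.5 and 151.5 in young HSCs, so that, like those of Ikzf3, its young replicates lay on either side of the old ones.

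Of 17 tested NuRD and corepressor genes 0 passed in limma, with 0 at an unadjusted p under 0.05, and the median log2 fold change was -0.08. They were fitted below 0 in 15 of 17 genes, or 88.2%, beside 43.5% of all tested genes, between -0.40 for Chd3 and 0.07 for Rbbp7. Chd4, the NuRD helicase, had 40875 and 29870.5 in old and 41338 and 39555 in young HSCs. Chd3, Mta3 and Sin3a had the smallest p of the list, and the log2 fold changes of Mta3 and Sin3a were both -0.24.

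Of 10 tested E protein and Id genes 0 passed in limma, with 1 at an unadjusted p under 0.05, and the median was 0.06. That gene was Id2, an inhibitor that binds E proteins and keeps them off DNA, with 748.5 and 1021.5 in old and 258 and 438 in young HSCs. Both old replicates were above both young ones, with a log2 fold change of 1.38 (SE 0.29) and an adjusted p of 0.0649 in limma. Id2 passed with all 8 libraries and a random block (adjusted p = 0.00518, limma). It did not pass without a trend on level (adjusted p = 0.163, limma) or with no filter on low values (adjusted p = 0.278, limma). The log2 fold change of Id2 was 1.60 without old replicate 13, 1.15 without old replicate 14 and 1.76 without young replicate 14. It was smallest without young replicate 13. The E protein genes Tcf12 and Tcf4 had log2 fold changes of 0.06 and 0.07, next to -0.37 for Tcf3.

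Of 27 tested lymphoid specification regulators 0 passed in limma, with 8 at an unadjusted p under 0.05, where 14.0% of all tested genes had one, and the median was -0.12. Of these 8, 4 had lower and 4 had higher values in old HSCs. Runx3, Sox4 and Cux1 had the smallest p, all with lower values in old HSCs. Runx3, a factor of T and NK cells, had 2810.5 and 2315 in old and 3720.5 and 4255 in young HSCs (adjusted p = 0.112, limma). Sox4, which is needed for B cell development, had 4600 and 4194.5 in old and 7152.5 and 6047 in young HSCs (adjusted p = 0.128, limma). Those with higher values were Ets1, Foxo1, Gata3 and Mef2c, with log2 fold changes of 0.60, 0.54, 0.44 and 0.42. Gata3, a factor of T cells, had 1442 and 1738 in old and 1160.5 and 1169.5 in young HSCs (adjusted p = 0.257, limma).

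Of 15 tested genes of receptor rearrangement other than Rag1 and Dntt, 0 passed in limma, with 4 at an unadjusted p under 0.05, and the median was -0.16. The surrogate light chain gene Igll1 had 4 and 3.5 in old and 11 and 29 in young HSCs, and Vpreb3 had 9 and 7.5 in old and 16.5 and 34.5 in young HSCs. Both passed the filter on low values only through their young replicates, which favours their direction. Hmgb2, a DNA-bending cofactor of the recombinase, had 3268.5 and 3335.5 in old and 4675 and 4907.5 in young HSCs (log2 fold change -0.54, SE 0.13, adjusted p = 0.111, limma). Polm, a polymerase related to Dntt, had higher values in old HSCs, 411.5 and 364 against 289 and 243 in young HSCs (adjusted p = 0.276, limma). The end-joining genes Xrcc5, Lig4 and Nhej1 had log2 fold changes of -0.12, 0.08 and 0.02.

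**Figure D4:**
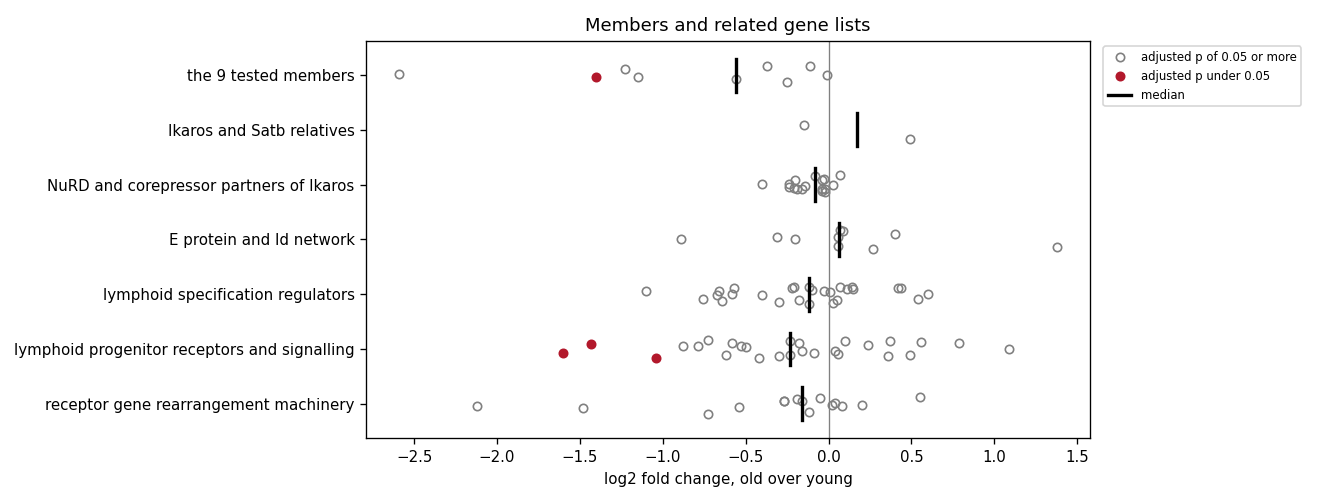
Fitted log2 fold change, old over young (horizontal axis), of the 9 tested members and of each tested gene in 6 related lists; filled dots passed an adjusted p under 0.05 in limma and black bars are medians. Satb1 is the filled dot among the members, and Flt3, Socs2 and Cd37 are those among the progenitor receptors and signalling genes. The medians include Ebf1 among the members and Igll1 and Vpreb3 among the rearrangement genes, which passed the filter only through their young replicates.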

How the data were processed

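Per the labels' protocols, libraries were prepared from polyA-selected RNA with a TruSeq kit. The build mm9 and DESeq, with no version or role, are named in the submitters' processing notes. No source used here names the aligner or the counter. The deposited scaled values are a score: reads multiplied by the authors by 1 factor per library and rounded, which was tested on the spacing of the values. The deposited FPKM is that score times 1 constant per gene. The authors' deposited table adds their own log2 ratio of old over young and its FDR (adjusted p-value).

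The design had foreseen either unit; as the values are not raw counts, technical pairs were averaged, giving 4 replicates, and limma 3.58.1 under R 4.3.3 fitted log2(value + 0.5) on age. The prior followed a trend on level, tests were two-sided and p-values were adjusted by Benjamini-Hochberg. The fit took 18318 of 38172 genes, those reaching a value of 10 in 2 or more replicates. Because of the added 0.5, fold changes of low genes come out too small. Alternatives were another pseudocount, filter, normalization, test, choice of technical libraries, a replicate block and each replicate left out. The fit was tested on simulated data. Reads per library were estimated from the numbers that a library's values skip or double; intervals from reads would cover counting error only.

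The members and gene lists were chosen with earlier results of these data known, so no list was tested as a set. Named from each list were the genes that passed, otherwise the 3 with the smallest p; further genes in the text were chosen for their role or after their values were seen. Of the 198 genes in the lists 1, Tespa1, had no row. Symbols joined in 1 row were split.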

Additional observations from a re-analysis of the deposited data

How the results depend on the processing

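The number of genes called depended on how the replicates entered the fit. Against 467 genes in the fit reported, limma called 1065 with all 8 libraries and a random block, 302 with the lower-numbered technical libraries, and between 0 and 274 with 1 replicate left out. With no filter on low values it called 0 (2943 at an unadjusted p under 0.05, and 342 in limma-voom with the filter). Of the 10 members 1 was called in the fit reported, 3 with the random block (Satb1, Ikzf2 and Tcf3), between 0 and 2 with 1 replicate left out, and 0 without a trend, with the lower-numbered libraries or with no filter (5, 5 and 4 at an unadjusted p under 0.05, and 1 in limma-voom). Of the genes in the lists 18 were called, with 38 under the random block, 6 without a trend, 0 with no filter (46 at an unadjusted p under 0.05, and 16 in limma-voom) and between 0 and 11 with 1 replicate left out. The cause was not tested, except that leaving out a replicate leaves fewer samples, with the lone one assumed to vary like the others. The member counts here include Ebf1, and with no filter also Pax5. Of all tested genes, 2607 of 18318 had an unadjusted p under 0.05 in limma without a trend. With the lower-numbered libraries 2359 of 18318 had one, and with no filter 2943 of 27330.

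The adjusted p of Satb1 in limma ranged from 8.69e-06 to 0.294 over 15 alternatives, 9 of which it passed, and its fold change stayed between -1.60 and -1.19. Ikzf3 had the opposite sign in 3 of 14 alternatives. None of the named genes past the threshold in the fit reported changed sign in these alternatives.

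The numbers 13 and 14 occur at both ages, and same-numbered replicates deviated together (correlation 0.544 across 18318 genes), but with 2 pairs the labels do not show that they are paired. With the replicate number as a replicate block, limma called 2766 genes, 4 members (Satb1, Ikzf2, Dntt and Rag1) and 66 genes of the lists. Id2 passed there too (adjusted p = 1.85e-06). Pax5, with about 7 reads over the 4 old libraries and 40 over the 4 young ones, was below the filter on low values and was not tested.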

Other observations

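The NK cell and dendritic cell marker lists each held 1 gene that rose in old HSCs. Klrb1c, which encodes the NK cell receptor NK1.1, had 2495 and 4036 in old and 372.5 and 470 in young HSCs (log2 fold change 2.92, SE 0.25, adjusted p = 0.00363, limma), while the other NK cell markers except Nkg7 stayed at or below 22.5 in every replicate. Nkg7 had 696 and 983 in old and 1281 and 2138 in young HSCs (adjusted p = 0.149, limma). Clec9a, a receptor of cross-presenting dendritic cells, had 1149.5 and 913 in old and 382 and 389 in young HSCs (adjusted p = 0.0134, limma), while Xcr1, Batf3 and Siglech stayed below the filter on low values. Of the 7 tested dendritic cell markers the other 6 did not pass. Cd74, the invariant chain, had 6909.5 and 9744 in old and 5279 and 5212 in young HSCs (adjusted p = 0.17, limma), and H2-Ab1, an MHC class II chain, had 2479.5 and 4280.5 in old and 2439 and 2283 in young HSCs (adjusted p = 0.502, limma). Ccr2 had 391 and 1460.5 in old and 119.5 and 2043.5 in young HSCs, and in Ccr2 and Itgax the young replicates lay on either side of both old ones. Cd209a had 6 and 18 in old and 6.5 and 43 in young HSCs. Klf2, a factor of quiescent lymphocytes, had 59 and 248.5 in old replicates 13 and 14 and 36 and 1862.5 in young replicates 13 and 14.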
